A study of Mus musculus with 23 samples.

Results

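The heat response of p53 heterozygous mouse embryos was set against that of wildtype embryos, probe by probe. The quantity is a difference of differences: heterozygous heat minus heterozygous control, less wildtype heat minus wildtype control, on the log2 scale. A negative value means that heat left a transcript lower in heterozygous than in wildtype embryos, after each genotype's own control was taken off. All probes with at least 3 values in each of the 4 groups entered, 24145 of the 36227 on the array. They name 13587 of the 18069 genes named on the array, each represented by its brightest probe.

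Whole embryos of day 8.5 were bathed for 10 minutes, collected, genotyped and pooled, 3 to 7 embryos of the same genotype to a pool. The 4 groups were heterozygous (p53 +/-) embryos bathed at 43 °C, heterozygous embryos bathed at 38 °C, wildtype (p53 +/+) embryos bathed at 43 °C and wildtype embryos bathed at 38 °C, with 4 pools each, lettered A to D. All came from matings of p53 heterozygous parents, so every embryo was carried by a heterozygous mother. Null (p53 -/-) pools enter the quantile normalization, the estimate of spread and a few values given side by side. The labels give neither strain, p53 allele, litters nor the time from bath to collection, and pools mix embryos of unrecorded sex. Each group mean thus describes a mixture of tissues, in which fewer cells of a type and less RNA per cell cannot be told apart.

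p53 is a transcription factor held at low level by the ubiquitin ligase Mdm2 and released by DNA damage and other stress. It then raises genes that stop the cell cycle, permeabilise mitochondria in apoptosis, repair DNA and limit p53 itself. Heat acts through another factor, Hsf1, which raises chaperones of the Hsp70, Hsp90, Hsp40 and small heat shock families that hold and refold damaged proteins. Heat at the time of neural tube closure is a known cause of neural tube defects, and p53 is a known mediator of cell death in embryos under stress.

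The labelled tissue fitted the neural markers Sox2 (2.46 to 5.39 over the 16 arrays), Pax6 (10.04 to 16.9) and Otx2 (4.47 to 14), the somite genes Tcf15 and Meox1, the heart gene Tnnt2 (4.19 to 13.9) and the vessel gene Kdr. Intensities are relative units after quantile normalization. Myl7, Hba-x, Hbb-bh1, Cdh5, the trophoblast genes Prl3d1 and Tpbpa, the leukocyte genes Ptprc and Csf1r, and Trp53 itself had no tested probe, which leaves no reading of the targeted gene by which to check a pool's genotype. The deposited control columns hold 7576 to 11666 empty cells each in the 2 genotypes and the heat columns none, so bath and array processing cannot be told apart. Heterozygous control pools A and B stood apart from C and D: their deviations from the group mean correlated across probes at -0.76 to -0.82 between these pairs and at 0.61 and 0.58 within them. Wildtype heat pools split the same way, at -0.67 to -0.75 between the pairs and at 0.46 and 0.42 within them. Deviations from a group mean sum to 0, so their correlations lean negative. Heterozygous controls A and B, with wildtype control A, also have the lowest maxima, 181.5 to 209.3 against 265.9 to 328.6 on the other controls. Wildtype heat A and B were not left out as a pair. Wildtype heat pool B lacked the high Hspa1a of pools A, C and D, while its Hspb1, 77.7, lay with the other heated pools. Some of the moves on leaving out these pools are given beside the results or with the alternatives.

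No probe passed the test of the difference. At an adjusted p under 0.05 (limma, Benjamini-Hochberg over 24145 probes) 0 probes were called, which is 0% of those tested, and the smallest adjusted p was 0.356. Unadjusted, 1440 probes (5.96%) had p under 0.05, 568 of them higher (2.35%) and 872 lower (3.61%) in the heterozygous response. Among genes these were 360 higher (2.65%) and 343 lower (2.52%). The standard error of the difference had a median of 0.192 on the log2 scale and ran from 0.134 to 0.334 between the 10th and the 90th percentile. The median half-width of the 95% interval, which is not adjusted for the number of probes, was 0.398 over all probes. A probe of this precision could not tell a smaller difference from 0 even before adjustment. No difference below is therefore a call, and the values describe which genes lay farthest from 0 and how their pools were spread. The plot of both heat responses shows where the p53 targets, the yolk sac genes and the heat shock genes lie.

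**Figure D1:**
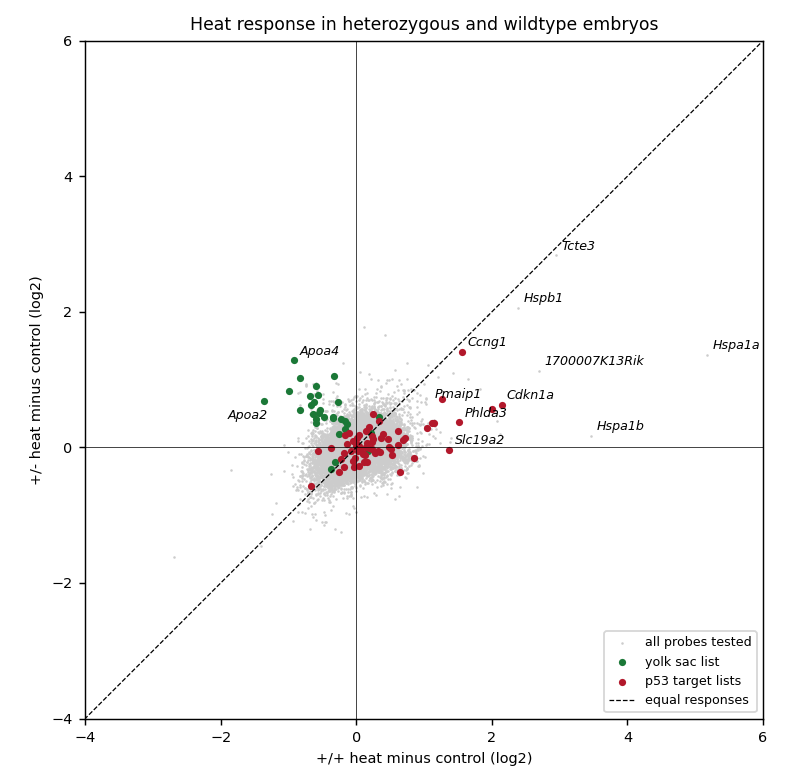
Heat minus control in heterozygous pools (vertical axis, log2) against heat minus control in wildtype pools (horizontal axis, log2) for all 24145 probes tested, with the p53 target lists in red, the yolk sac list in green and equal responses on the dashed line. The vertical distance from that line is the difference of heat responses: Pmaip1, Phlda3, Slc19a2 and Hspa1b lie below it, Apoa2 and Apoa4 above it, and Tcte3, Hspb1 and Ccng1 near it.

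Genes that p53 is known to raise had 5 of the 6 lowest list medians. Of 82 listed targets 63 were measured. Their median difference was -0.18 against 0.02 over all genes, with 45 below 0 and 18 above (6342 and 7245 of all 13587 genes). At an unadjusted p under 0.05, 16 were lower (25.4%, against 2.52% of all genes) and 2 higher (Gadd45a and Kitl), and 0 passed after adjustment. The lists here and below were chosen with earlier results of these data known, so such shares are a description and no independent support. Within genotypes, 2 targets, Ccng1 and Sfn, rose with heat in heterozygous pools, where 1.08% of all genes and 0.928% of all probes rose. In wildtype pools 15 rose, where 1.47% of all genes and 1.6% of all probes rose. Pank1 fell in both. Passing in one genotype and not in the other is no test of the difference. The list's per-pool level, the median of its members centred on their 4 group means, was -0.048, -0.042, -0.035 and 0.050 in heterozygous heat pools A to D and lay between -0.19 and 0.013 in heterozygous control pools. It was 0.16, -0.026, 0.32 and 0.12 in wildtype heat pools A to D, and between -0.14 and -0.021 in wildtype control pools. Wildtype heat A, C and D thus stood above every heterozygous heat pool, and wildtype heat B did not. With B left out the median was -0.20, 19 targets rose in wildtype pools, and 4 of 63 passed the test of the difference (6.35%, against 7 genes in all, 0.0515%). These 4 were Pmaip1, Phlda3, Slc19a2 and Plk2. With wildtype heat C left out the median was -0.10 and 0 passed.

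Cdkn1a, the cyclin-dependent kinase inhibitor p21, read 5.33, 5.06, 5.58 and 1.97 in heterozygous heat pools A to D, and 5.45, 5.34, 1.25 and 1.42 in heterozygous control pools. With heat, wildtype pools read 34.5, 10.01, 34.4 and 22.4, against 6.15, 4.45, 5.43 and 4.69 in wildtype control pools. All wildtype heat pools lay above every other pool, while the heterozygous heat and control pools overlapped. The difference was -1.51 ± 0.69 (SE; unadjusted p = 0.0399), with wildtype embryos at 2.14 ± 0.49 (adjusted p = 0.0187) and heterozygous embryos at 0.63 ± 0.49 (adjusted p = 0.552). Its size follows the control pools chosen: it was -0.58 without heterozygous controls A and B and -2.53 without C and D. Plk2, a polo-like kinase, had a difference of -1.01 ± 0.28, with 7.81 to 12.8 in heterozygous heat pools and 10.3 to 26.3 in wildtype heat pools, of which pool B was the lowest. Btg2, an antiproliferative gene, had -0.999 ± 0.38 and rose in neither genotype. Gadd45a, a growth arrest gene, had a positive difference of 0.31. Of 13 arrest genes measured, 9 had negative differences, against 6342 of all 13587 genes. Of these 9, 4 had an unadjusted p under 0.05, against 2.52% of all genes lower.

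Among 14 apoptosis genes 11 had negative differences, against 6342 of all 13587 genes. Pmaip1, the BH3-only protein Noxa, read 6.46, 6.73, 6.13 and 7.57 in heterozygous heat pools A to D, and 5.23, 4.46, 4.34 and 4.07 in heterozygous control pools. In wildtype pools it read 22.9, 8.37, 28.6 and 17.8 with heat, against 4.66, 4.16, 4.39 and 4.41 in controls. The 4 wildtype heat pools all lay above the 4 heterozygous heat pools, which in turn lay above all controls. Its difference was -1.43 ± 0.36 (unadjusted p = 0.000714, adjusted p = 0.364), a 0.37-fold response, and -1.80 with an adjusted p of 0.0116 without wildtype heat B. Bbc3, the BH3-only protein Puma, had 2.44 to 3.11 in heterozygous heat pools against 2.86 to 6.9 in wildtype heat pools, and a difference of -0.75 ± 0.25. It rose in wildtype embryos by 1.04 ± 0.18 (adjusted p = 0.00288) and had 0.28 ± 0.18 in heterozygous embryos (adjusted p = 0.448). Zmat3, an RNA-binding regulator of splicing, was among the most evenly measured targets. It read 25.9 to 29.2 in heterozygous heat pools and 36.1 to 38.7 in wildtype heat pools, with no overlap, and 23.5 to 30.4 over all control pools. The difference was -0.34 ± 0.10 (unadjusted p = 0.00346).

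The signalling targets held Phlda3 and Slc19a2. Phlda3, a PH-domain inhibitor of Akt, read 3.52, 3.71, 3.69 and 5.12 in heterozygous heat pools A to D, and 3.02, 3.03, 3.44 and 2.81 in heterozygous control pools. It read 10.2, 5.36, 12.3 and 8.55 in wildtype heat pools, against 3.51, 2.77, 2.87 and 3.02 in wildtype control pools. No heterozygous heat pool reached a wildtype heat pool. The difference was -1.15 ± 0.26 (unadjusted p = 0.000192). Slc19a2, a thiamine transporter, read 1.68, 1.8, 1.98 and 2.92 in heterozygous heat pools A to D and 2.61 to 9.47 in wildtype heat pools, with 1.9 to 2.4 over the 8 control pools. It rose in wildtype embryos by 1.37 ± 0.26 (adjusted p = 0.00529), had -0.03 ± 0.26 in heterozygous embryos and a difference of -1.41 ± 0.37. Psrc1, Abhd4 and Def6, named after their values were seen because they rose in wildtype embryos (0.62, 0.71 and 1.27), had differences of -0.37, -0.57 and -0.56. The wildtype rise enters the difference with a minus sign. Picking these genes by it leans their differences to the negative side, so their signs are no support. Of 16 signalling genes 11 were negative, against 6342 of all 13587 genes.

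Among metabolism and repair genes, Dcxr, a carbonyl reductase, read 2.64, 2.73, 2.3 and 2.9 in heterozygous heat pools A to D, and 2.16, 2.29, 1.94 and 1.86 in heterozygous control pools. Wildtype heat pools read 4.91, 5.22, 4.3 and 3.32, against 1.93, 2.04, 1.92 and 2.17 in wildtype control pools. Every wildtype heat pool, B among them, was above every heterozygous heat pool. The difference was -0.76 ± 0.17 (unadjusted p = 0.000223). Cpt1c, a neuronal carnitine palmitoyltransferase, rose in both genotypes, by 0.39 ± 0.09 (adjusted p = 0.0248) in heterozygous and 0.96 ± 0.09 (adjusted p = 1.42e-06) in wildtype embryos, with a difference of -0.57 ± 0.13. These values are of the dimmer of 2 Cpt1c probes. The brighter one, which stands for the gene in the counts, had a difference of 0.14 ± 0.11, so the 2 probes disagree. Sesn2, a stress-induced inhibitor of mTORC1 signalling, had -0.79 ± 0.26, and Ak1 (adenylate kinase) and Lpin1 (a phosphatidate phosphatase) had -0.58 ± 0.18 and -0.64 ± 0.20. Of 14 genes 9 were negative, against 6342 of all 13587 genes.

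Genes that feed back on p53 had no difference at an unadjusted p under 0.05. Mdm2 had -0.37 ± 0.42, with a 95% interval from -1.25 to 0.51, Trp53inp1 -0.19 ± 0.24, the nuclear body protein Pml -0.33 ± 0.17 and the ubiquitin ligase Rchy1 -0.26 ± 0.15. Mdm2 was dim, at 0.32 to 0.795 in heterozygous heat pools and 0.429 to 1.14 in wildtype heat pools. Cyclin G1, Ccng1, rose in both genotypes. It read 7.35, 6.36, 7.01 and 7.75 in heterozygous heat pools A to D, and 2.98, 2.21, 2.86 and 2.67 in heterozygous control pools. In wildtype pools it read 11.7, 11.4, 14.4 and 9.55 with heat, against 3.53, 4.23, 3.95 and 4.05 in controls. The heterozygous pools lay below the wildtype pools in both baths without overlap, and the rises of 1.41 ± 0.19 and 1.56 ± 0.19 gave a difference of -0.15 ± 0.27 (95% interval -0.71 to 0.41). Against the same wildtype pools, the difference for null embryos was -1.21 ± 0.28 for Ccng1, -1.25 ± 0.27 for Phlda3 and -1.33 ± 0.38 for Pmaip1, beside -0.15, -1.15 and -1.43 for heterozygous embryos. The 2 sets share the wildtype arrays, and they were not tested against each other.

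Outside the lists, the transcript 1700007K13Rik had the smallest p of all named probes with a negative difference. It read 1.47, 1.33, 1.22 and 1.84 in heterozygous heat pools A to D, and 0.64, 0.674 and 0.665 in heterozygous control pools A to C, with D missing. In wildtype heat pools it read 6.19, 5.24, 4.73 and 2.62, against 0.799, 0.656, 0.676 and 0.644 in wildtype control pools. The 4 groups of heat and control pools did not overlap except between the controls. It rose by 1.13 ± 0.22 (adjusted p = 0.00939) in heterozygous and by 2.69 ± 0.20 (adjusted p = 8.2e-08) in wildtype embryos, a difference of -1.56 ± 0.30 (unadjusted p = 3.64e-05). Without wildtype heat D the difference was -1.82, and it was then the only probe past the threshold (adjusted p = 0.00385).

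**Figure D2:**
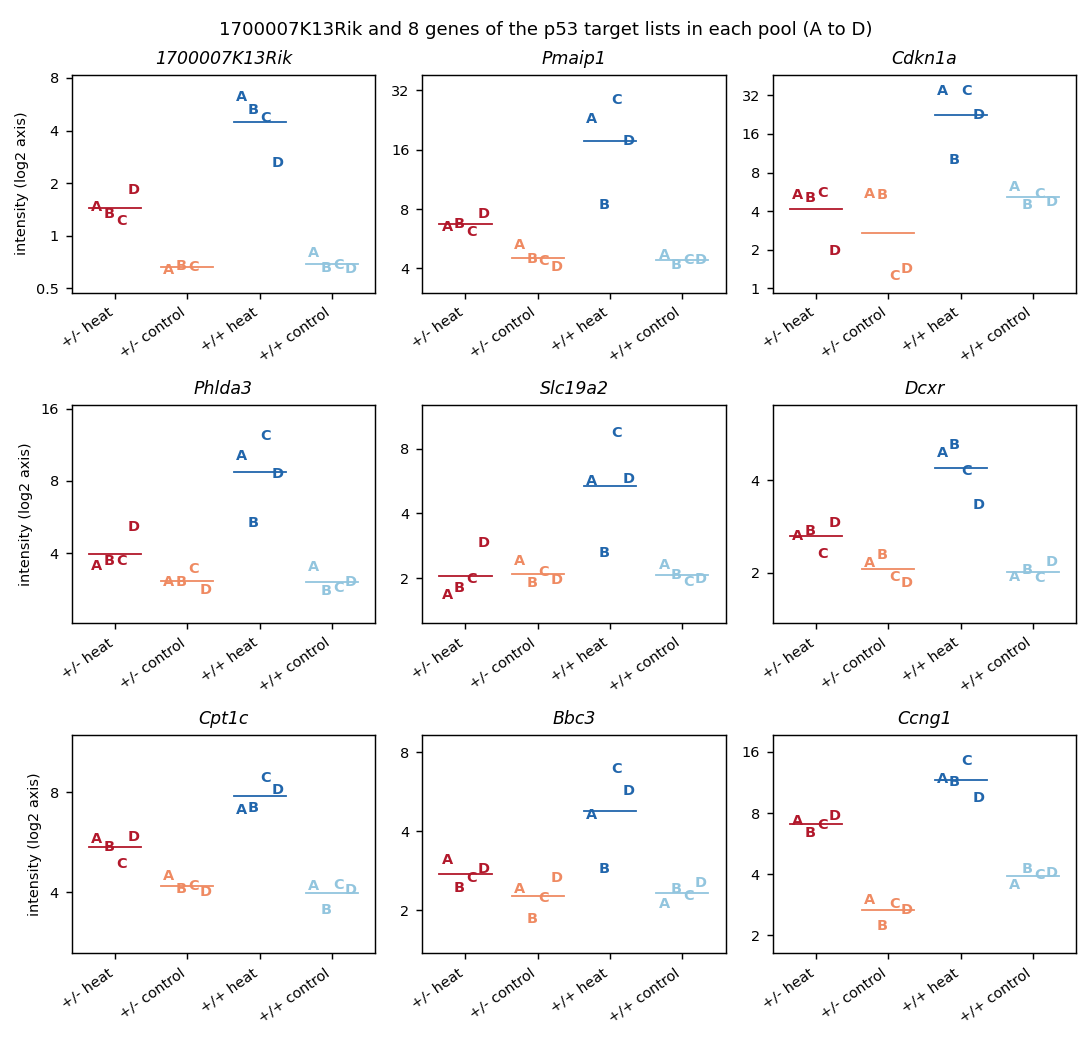
Intensity on a log2 axis (relative units) in each pool, shown by its letter, for 1700007K13Rik and 8 genes of the p53 target lists (Cpt1c by its dimmer probe), with lines at the group means of log2 values. The wildtype heat mean is the highest in every panel, pool B is the lowest of them for Pmaip1, Cdkn1a, Phlda3, Slc19a2 and Bbc3, and Ccng1 is raised in both genotypes.

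The promoters of Cdkn1a and Ccng1 are shown because both genes rose with heat in wildtype embryos, their differences were -1.51 and -0.15 (not tested against each other), and both hold a p53 site near a start listed by RefSeq. A gene may have several listed starts, and it was counted if any of them had a site. A site was scored as a pair of p53 half-sites of 10 letters, 0 to 13 letters apart, on either strand and with at most 1 mismatch outside the C and G cores; overlapping pairs were merged. Such a pair lies within 250 bases before a listed start in 3 of 53 measured p53 targets with a promoter (5.66%: Ccng1, Cdkn1a and Pml), against 54 of 10876 tested genes (0.497%). The sequences are RefSeq's for GRCm38.p6, 5′ to 3′ on the gene's strand, with the half-sites in capitals: chr17:29090729-29090978 on the plus strand for Cdkn1a and chr11:40755287-40755536 on the minus strand for Ccng1.
Cdkn1a: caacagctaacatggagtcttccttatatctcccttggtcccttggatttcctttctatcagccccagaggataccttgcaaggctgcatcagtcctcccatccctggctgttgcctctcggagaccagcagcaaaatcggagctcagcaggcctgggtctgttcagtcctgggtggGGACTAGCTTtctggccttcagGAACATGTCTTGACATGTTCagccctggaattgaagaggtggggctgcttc
Ccng1: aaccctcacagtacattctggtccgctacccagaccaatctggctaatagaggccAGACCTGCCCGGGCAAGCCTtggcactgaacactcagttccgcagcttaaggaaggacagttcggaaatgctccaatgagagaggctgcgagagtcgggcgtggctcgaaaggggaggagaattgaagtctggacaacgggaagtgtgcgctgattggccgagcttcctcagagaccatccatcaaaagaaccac
The capitals end 32 bases before the listed start at the end of the window shown for Cdkn1a, and 176 bases before that for Ccng1. Neither start was checked as the one used in these embryos. A match is a description of these letters only. The heat shock element, scored as 3 alternating GAA and TTC triplets with 2 free letters between neighbours, on either strand, lies in the same window of 3 of 31 heat shock genes (9.68%: Dnajb6, Hspd1 and Hspe1) and 52 of 10876 tested genes (0.478%). The windows of Hspd1 and Hspe1 overlap on opposite strands and hold the same site, which is counted for each gene.

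The opposite pattern came from genes of the yolk sac and visceral endoderm, the extraembryonic epithelium that secretes serum proteins before the liver forms. Of 34 listed genes 30 were measured, and their median difference was 0.98. Of these 30, 28 were above 0, against 7245 of all 13587 genes, and 2 below (Gata6 at -0.23 and Foxa2 at -0.01). At an unadjusted p under 0.05, 18 were higher (60%, against 2.65% of all genes) and 0 lower, and 0 passed after adjustment. This list too was chosen with earlier results of these data known, so its share is a description only. Both responses contributed: the median was 0.47 with heat in heterozygous embryos, where 0 of 30 passed, and -0.51 in wildtype embryos, where 1 fell. That gene, the apolipoprotein Apoa2, read 7.64, 10.9, 4.98 and 6.26 in heterozygous heat pools A to D, and 7.52, 5.09, 3.35 and 3.07 in heterozygous control pools. In wildtype heat pools it read 5.54, 2.3, 2.67 and 2.55, against 4.21, 11.5, 8.89 and 8.83 in wildtype control pools. Its difference was 2.04 ± 0.50 (unadjusted p = 0.000485). The apolipoproteins Apoa4, Apom and Apoc2 had 2.21, 1.84 and 1.83, the calcium-binding protein S100g 1.505, the fibrinogen chains Fga and Fgb 1.44 and 1.34, the nuclear receptor Hnf4a 1.38, alpha-fetoprotein Afp 1.37 and transthyretin Ttr 1.30.

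These genes varied widely between pools of a group. The summed intensity of the 26 with a value on all 16 arrays ran from 494 to 730 in heterozygous heat pools and was 525, 498, 327 and 308 in heterozygous control pools A to D. It was 614, 338, 301 and 337 in wildtype heat pools A to D, and ran from 439 to 629 in wildtype control pools. Wildtype heat A stood with the heterozygous heat pools, and heterozygous controls C and D stood with wildtype heat B to D. Without heterozygous controls C and D the list's median was 0.58, with 10 genes higher at an unadjusted p under 0.05 (33.3%, against 3.78% of all genes in that setting), and without A and B it was 1.15. The defining serum proteins Afp (8.98 to 46.1) and Ttr (43.5 to 107) were measured on all 16 arrays. Whether the amount of yolk sac in a pool has a part in any difference reported here was not tested. Of 26 trophoblast and decidua genes 13 were measured, with a median difference of 0.07, and 11 of them summed to 77.8 to 103 in heterozygous heat, 52.4 to 84.2 in heterozygous control, 71.8 to 98.3 in wildtype heat and 66.2 to 81.4 in wildtype control pools. For the 6 of 22 immune genes measured the median was 0.03, and for the 18 of 26 primitive red cell genes it was 0.14.

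**Figure D3:**
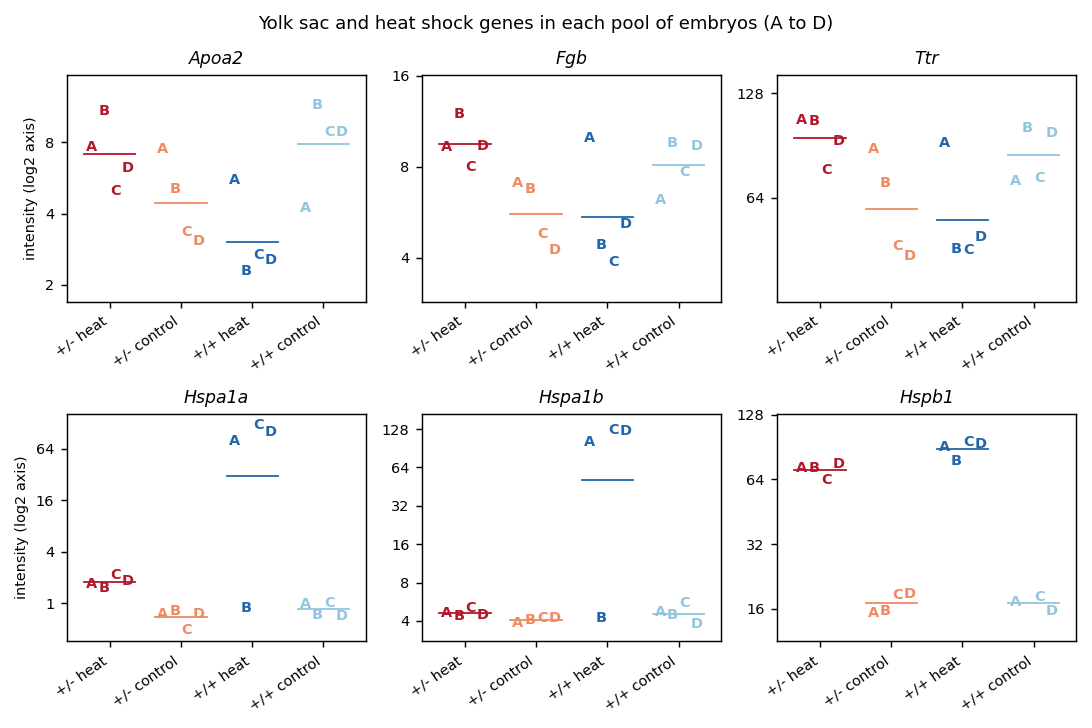
Intensity on a log2 axis (relative units) in each pool, shown by its letter, for 3 yolk sac genes (Apoa2, Fgb, Ttr) and 3 heat shock genes (Hspa1a, Hspa1b, Hspb1), with lines at the group means of log2 values. For the yolk sac genes wildtype heat A lies with the heterozygous heat pools, for Hspa1a and Hspa1b wildtype heat B lies with the controls, and Hspb1 is raised in all heat pools.

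The 10 named genes of smallest p with a positive difference did not pass after adjustment. Fbp2, a fructose bisphosphatase of gluconeogenesis, had the smallest p of all probes (1.73e-05) and read 1.26, 1.45, 1.21 and 1.04 in heterozygous heat pools A to D, and 0.819, 0.702, 0.574 and 0.492 in heterozygous control pools. It read 0.776, 0.515, 0.692 and 0.762 in wildtype heat pools, against 0.852, 0.94, 0.975 and 1.38 in wildtype control pools. Heterozygous heat pools lay above both heterozygous controls and wildtype heat pools. Fbp2 was dim, and low values on the control arrays had been raised to floors of 0.308 to 0.512 before normalization. It rose in heterozygous embryos by 0.96 ± 0.20 (adjusted p = 0.013), had -0.59 ± 0.20 in wildtype embryos (adjusted p = 0.112) and a difference of 1.54 ± 0.28. Nostrin, which regulates trafficking of endothelial nitric oxide synthase, had 1.22 ± 0.28, Creb3l3, a liver transcription factor, 1.42 ± 0.33, the mucin Muc13 1.24 ± 0.29, the secreted phosphoprotein Spp2 1.67 ± 0.41 and the collectin Colec11 0.85 ± 0.21. Eras, a Ras protein of embryonic stem cells, had 0.75 ± 0.19 and Pde6c, a cone phosphodiesterase, 1.03 ± 0.25. Lbh, a transcription cofactor of limb bud and heart, fell in wildtype embryos by 1.26 ± 0.16 (adjusted p = 8.93e-05) and had -0.39 ± 0.16 in heterozygous embryos, a difference of 0.87 ± 0.22, while a brighter probe of the gene had 0.06.

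On the negative side the 10 named genes of smallest p were 1700007K13Rik, Phlda3, Dcxr and Cpt1c, given above, and Clns1a, Notch1, 4930445K14Rik, Ccdc112, Azin2 and Ptpdc1. Notch1, the receptor of the Notch pathway that holds progenitors undifferentiated, read 8.1, 7.13, 6.85 and 8.09 in heterozygous heat pools A to D, and 9.1, 8.3, 10.03 and 9.82 in heterozygous control pools. Wildtype heat pools read 9.44, 8.99, 11.7 and 12.2, against 8.15, 7.37, 7.18 and 6.89 in wildtype control pools. The order of bath was thus opposite in the 2 genotypes. It rose in wildtype embryos by 0.51 ± 0.12 (adjusted p = 0.023), had -0.30 ± 0.12 in heterozygous embryos (adjusted p = 0.197) and a difference of -0.81 ± 0.17. Azin2, an antizyme inhibitor of polyamine metabolism, and Clns1a, a subunit of the methylosome that feeds spliceosome assembly, both had -1.05, and Ccdc112 had -0.85. Azin2 was dim, at 0.435 to 0.558 in heterozygous heat pools and 0.675 to 0.929 in wildtype heat pools. Brighter probes of Clns1a and Ccdc112 had -0.15 and 0.25.

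**Figure D4:**
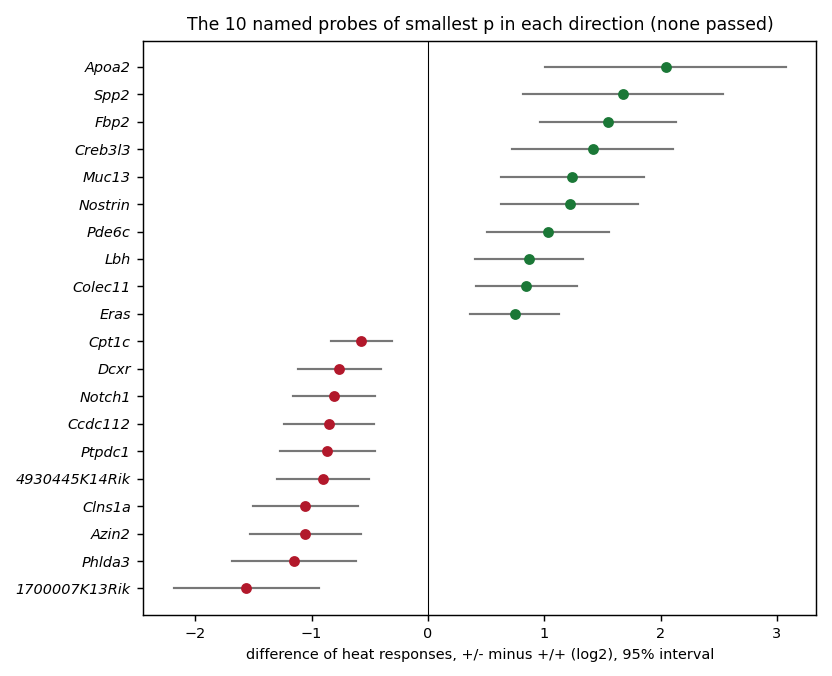
Difference of heat responses, heterozygous minus wildtype (log2, horizontal axis), with its 95% interval for the 10 named probes of smallest p in each direction. The values run from -1.56 for 1700007K13Rik to 2.04 for Apoa2, all intervals exclude 0 before adjustment over 24145 probes, and none passed after it.

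Direct comparison of the 2 genotypes in the hot bath, a component of the same contrast, did give calls. Between heterozygous and wildtype heat pools 19 probes passed, 5 higher (0.0207% of probes; by gene 3, or 0.0221%) and 14 lower (0.058%). In the control bath 1 passed (0.00414%), a probe of Dennd5b that was higher in heterozygous pools in both baths (1.29 ± 0.13 with heat and 1.02 in controls). A brighter Dennd5b probe had -0.07 and -0.02. Of the 63 p53 targets 5 were lower in heterozygous heat pools (Pmaip1, Phlda3, Slc19a2, Dcxr and Zmat3), against 0.0589% of all genes. Over all genes 8 were lower. The number of targets was 11 without wildtype heat B (of 32 genes lower in all), 1 with the 16 arrays fitted alone (of 2), and 0 without wildtype heat C (of 2) or in values as deposited (of 3). Beside them, Ddit4l, a stress-induced inhibitor of mTOR, was at -1.41 ± 0.22 (adjusted p = 0.0141), with 1.1 to 1.36 in heterozygous heat pools and 1.72 to 5.57 in wildtype heat pools. The others with a symbol that were lower were 1700007K13Rik, Ccdc112, Clns1a, Pa2g4 and the dimmer probe of Cpt1c, and those higher were Tecta, Kif1a, Dnase1l1 and Lbh. They are named because they make up the whole set that passed.

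Among heat shock genes, Hspb1, a small heat shock protein, read 72.1, 72.4, 63.6 and 75.6 in heterozygous heat pools A to D, and 15.3 to 18.7 in heterozygous control pools. It read 90.9, 77.7, 95.8 and 93.4 in wildtype heat pools, against 15.6 to 18.2 in the 3 wildtype control pools with a value. It rose by 2.06 ± 0.10 and 2.39 ± 0.10 (adjusted p = 1.72e-11 and 4.05e-12), a difference of -0.33 ± 0.14 (unadjusted p = 0.0289). Hsp90aa1, the inducible cytosolic Hsp90, also rose in both (0.44 ± 0.09 and 0.39 ± 0.09), with a difference of 0.05 ± 0.13. Hspb8 had -0.33 ± 0.31, Hsph1 0.13 ± 0.35 and Dnajb1 -0.31 ± 0.26. Over 37 genes measured the median was -0.09 and 23 were negative, against 6342 of all 13587 genes. At an unadjusted p under 0.05, 4 of the 37 were lower, against 2.52% of all genes. Without heterozygous controls C and D the Hspb1 difference was -0.21, and without wildtype heat B that of Dnajb1 was -0.57.

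The inducible Hsp70 genes Hspa1a and Hspa1b had the most negative differences of the list and the widest errors. Hspa1a read 1.67, 1.52, 2.13 and 1.8 in heterozygous heat pools A to D, and 0.749, 0.808, 0.49 and 0.748 in heterozygous control pools. The wildtype heat pools were at 79, 0.886, 122 and 102, against 0.993, 0.736, 1.003 and 0.704 in wildtype control pools. The high values thus lie in 3 pools of 1 group, and wildtype heat B lies below all heterozygous heat pools. Hspa1b gave 4.66, 4.36, 5.04 and 4.44 in heterozygous heat pools and 101, 4.25, 125 and 124 in wildtype heat pools, with 3.77 to 5.58 over all controls. The differences were -3.80 ± 1.66 (unadjusted p = 0.0318) and -3.30 ± 1.14 (unadjusted p = 0.0086), and -5.51 and -4.49 without wildtype heat B, where Hspa1b passed (adjusted p = 0.0284) and Hspa1a did not (adjusted p = 0.0922). The 2 genes are near-identical copies, so a probe may read both. The pools high in Hspa1a are also those highest in Cdkn1a, Pmaip1 and Phlda3, and the part of this in the p53 result was not tested beyond leaving out pool B.

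Several strong heat responses had differences near 0. Tcte3, a dynein light chain gene, rose by 2.84 ± 0.11 in heterozygous and 2.95 ± 0.11 in wildtype embryos, a difference of -0.11 ± 0.16 (95% interval -0.44 to 0.23). The germ cell splicing gene Rbmxl2 (1.96 and 1.95) and the metallothionein Mt1 (1.22 and 1.06) had differences of 0.01 ± 0.18 and 0.16 ± 0.21. Of 18 cholesterol synthesis genes, which sterol-sensing factors raise together, 6 fell in heterozygous and 5 in wildtype embryos (1.55% of genes fell in each, and 1.05% and 1.15% of probes), and the median difference was -0.10. Mvd fell by 0.87 and 0.67, Fdps by 0.78 and 0.50 and Tm7sf2 by 0.82 and 0.62, with differences of -0.20, -0.28 and -0.20.

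Genes that pattern the embryo gave small lists of values. Of 28 neural tube genes 6 fell with heat in heterozygous and 1 in wildtype embryos (1.55% of all genes fell in each). For the difference, 4 were lower at an unadjusted p under 0.05 (2.52% of all genes were), and the median difference was -0.04. Neurog2, a proneural factor, read 0.799, 0.872, 0.948 and 1.28 in heterozygous heat pools A to D, and 1.65, 1.59, 2.35 and 2.06 in heterozygous control pools. In wildtype heat pools it read 1.08, 1.44, 1.7 and 0.958, against 1.8, 1.18, 1.33 and 1.19 in wildtype control pools. The wildtype groups overlapped and the heterozygous groups did not. It fell by 0.98 ± 0.19 in heterozygous embryos (adjusted p = 0.00939), had -0.11 ± 0.19 in wildtype embryos and a difference of -0.87 ± 0.27. The POU factor Pou3f3 and the zinc finger factor Zic1 had -0.89 ± 0.36 and -0.60 ± 0.25. Pou3f3 was at -1.30 without heterozygous controls A and B and at -0.53 without C and D. In the neural crest and face list of 19 genes, 3 were lower at an unadjusted p under 0.05 (against 2.52% of all genes), among them the homeobox genes Dlx1 (-0.50 ± 0.17) and Barx1 (-0.47 ± 0.19), and Barx1 fell in both genotypes. The glucose transporter Slc2a3 of the glycolysis list rose in heterozygous embryos by 1.66 ± 0.33 (adjusted p = 0.0112), had 0.43 ± 0.33 in wildtype embryos and a difference of 1.23 ± 0.46. Its heterozygous controls A and B stood above C and D, and the difference was 1.80 without A and B and 0.61 without C and D. Aqp8, an aquaporin entered under primitive red cells, rose by 1.25 ± 0.27 in heterozygous embryos and had a difference of 1.44 ± 0.39. The immediate early genes Fosl1 and Nr4a1 had -0.61 ± 0.23 and -0.60 ± 0.22. The plot of all lists sets their medians against the middle 50% of genes.

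**Figure D5:**
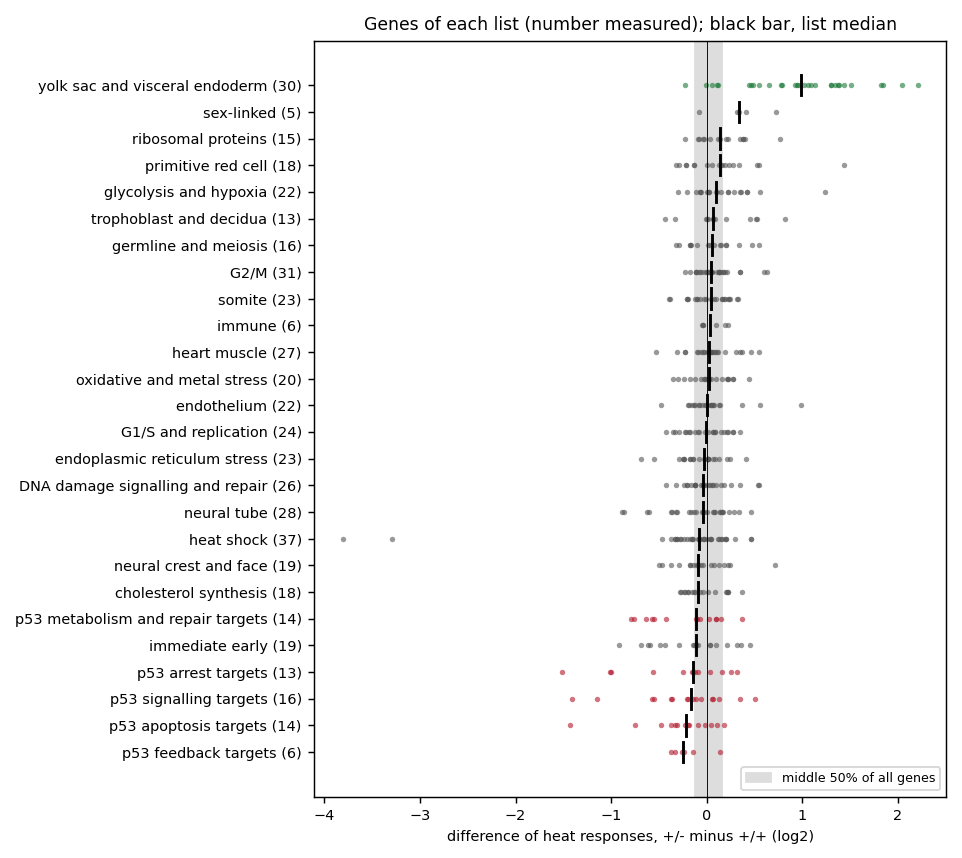
Difference of heat responses, heterozygous minus wildtype (log2, horizontal axis), for the measured genes of 26 lists (points; number measured in brackets), with list medians as black bars and the middle 50% of all genes shaded. The yolk sac median of 0.98 lies far to the right, the 5 p53 target lists hold 5 of the 6 lowest medians, and most other lists centre inside the shaded band.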

How the data were processed

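RNA of 23 pools of mouse embryos was read on CodeLink arrays of a single colour, stained through biotin with an Alexa-647 streptavidin, per the labels' protocols. The authors deposited linear intensities. How they scanned, corrected, scaled and filtered them is not given in the labels. Arrays have no read depth, and the number of pools limits the precision.

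Here, empty cells and the code -9999 counted as missing. Low values were raised to each array's 5th percentile of positive values. Probes with 3 or more values in all 4 groups were log2-transformed and quantile-normalized, and limma 3.58.1 in R 4.3.3 fitted 6 group means to the 23 arrays (lmFit, then eBayes, whose prior followed intensity). P-values are two-sided and adjusted by Benjamini-Hochberg over 24145 probes, with a threshold of 0.05; "rose" and "fell" are used of what passed. Errors of log2 values are standard errors. The fit was tested on simulated data with known differences.

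GEO's platform annotation gave the symbols, and RefSeq's GRCm38.p6 gene IDs brought them up to date: of 36227 probes, 21615 carry a single symbol (an ID match for 21487), 681 carry several, and 13931 are unnamed. The probe with the highest mean log2 value stands for a gene. Promoters, 250 bases before each listed start, matched 10876 tested genes.

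Named genes are the 10 of smallest p in each direction, the 2 of smallest p in each of 26 lists and 25 set genes, of which Bax, Xist, Ddx3y and Trp53 had no tested probe. Others were named after their values were seen: Lpin1, Abhd4, Psrc1, Def6, Gadd45a, Kitl, Apoa4, Apoc2, Apom, Ttr, Afp, Hnf4a, Fga, S100g, Mvd, Pou3f3, the list members given as a whole set that passed, and the probes past the threshold between the heat groups. The members and lists were chosen with earlier results of these data known. The labels call the pools biological replicates and name no litters, so the spread behind each p-value is that of these pools only and may be technical in part. The main fit did not pair pools by letter, and whether the letters mark a shared batch is not known. Of 24 same-letter pairs across groups, 12 had deviations correlating above 0.1 (range -0.35 to 0.46). Pairs of different letters across groups had a like range, -0.47 to 0.46, and their share above 0.1 is not given here. Between control and heat of the same genotype, the same-letter pairs A to D had 0.25, -0.03, 0.13 and 0.14 (wildtype) and 0.19, 0.37, -0.11 and 0.29 (heterozygous). In all, 30 alternatives were run.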

Additional observations from a re-analysis of the deposited data

Results flagged for a closer look

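In 16 of 419 groups of 4 pools, a pool lay far from the other 3 on the log2 scale. Its gap to the nearest, over the group's whole range, passed Dixon's 95% critical value. Values of genes are given below as intensities, not on the log2 scale of the rule. Chance flags about 1 in 20 groups. In heterozygous heat pools, D was low for Cdkn1a (1.97, the others 5.06 to 5.58) and high for Phlda3 (5.12, the others 3.53 to 3.71) and for the level of the p53 target list (0.050 on the centred log2 scale, the others -0.048 to -0.035). Pool B was high for Apoa4 (5.33), A high for Dlx1 (3.16) and C low for E2f1 (6.25). In wildtype heat pools, B was low for both inducible Hsp70 genes, Hspa1a (0.886, the others 79 to 122) and Hspa1b (4.25, the others 101 to 125). Pool A was high for the yolk sac genes Apoa4 (2.89, the others 0.763 to 0.861) and Ttr (92.1, the others 45.4 to 49.4) and low for the protamine Prm2 (0.461). In heterozygous control pools, C was low for Hspa1a (0.49) and high for phospholamban, Pln (1.7), and B was low for Plk2 (9.74, the others all at 11.7). In wildtype control pools, A was low for the cold-inducible RNA-binding gene Cirbp (22.7, the others 30.0 to 31.1), and D was high for the ribosomal gene Rpl26 (66.9, the others 16.4 to 17.0).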

How the results depend on the processing

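The counts of probes past the threshold stayed at 0 under 27 of the 30 alternatives, and the p53 targets' median stayed below 0 in all 30. Without wildtype heat B 12 probes were lower (Pmaip1, Phlda3, Slc19a2, Plk2, Hspa1b, Ddit4l, P2rx3, Cflar and 4 without a symbol), without wildtype heat D 1 was lower (1700007K13Rik), and without heterozygous controls A and B 3 were higher (Itpkb, Pcyt2 and Fbp2) and 3 lower (Ttc9c, Plxna1 and Ezh1). Leaving out single pools thus gave 0 to 0 probes higher and 0 to 12 lower. The p53 median was -0.18 with all pools, -0.24 to -0.10 without single pools and -0.071 in values as deposited, where the median over all genes was 0.099, against 0.017 after quantile normalization. Counts of p53 targets within each genotype and the yolk sac median were added as alternatives after the data were seen. The cause of these moves was not tested.

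The replicate block, which fits a term for each pool letter, gave 0 probes higher and 0 lower, with 597 and 1061 at an unadjusted p under 0.05. Of named genes, differences close to 0 changed sign. In values as deposited Ccng1 was at 0.018 and Tcte3 at 0.052. Rbmxl2 was at -0.032 with the replicate block, -0.035 with array weights, -0.054 with the highest value on the array as a covariate and -0.074 to 0.086 without single pools. Hsph1 was at -0.019 with array weights, -0.016 without heterozygous controls A and B and -0.052 to 0.35 without single pools. Hsp90aa1 ran from -0.018 to 0.11 without single pools, and Spi1 was at -0.014 without heterozygous controls A and B. No other of the 106 named probes followed changed sign where it could be fitted, which was under all 30 alternatives for 92 and under fewer for 14. Gata6, Foxa2 and the brighter second probes of named genes were not followed singly. Among values given above, leaving out heterozygous controls A and B moved Pml to -0.55, Mvd to -0.41, Ccng1 to -0.27 and Rchy1 to -0.16. Leaving out C and D moved S100g to 0.97, Abhd4 to -0.36, Pml to -0.18, Rchy1 to -0.42, Hspb8 to -0.21, Mvd to -0.036, Tcte3 to -0.21 and Mt1 to 0.06. It also moved Apoa4 to 1.62, Apoa2 to 1.55, Apom to 1.28 and Ttr to 0.91. Without A and B, S100g was at 2.03 and Spp2 at 2.06. Other values moved too, and those given are not the whole set. The yolk sac median ran from 0.85 to 1.27 without single pools and was 0.58 without heterozygous controls C and D.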

Other observations

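Probes without a single gene symbol leaned to negative differences. Of 8490 such probes, 161 were higher (1.9%) and 464 lower (5.47%) in the heterozygous response at an unadjusted p under 0.05, against 407 higher (2.6%) and 408 lower (2.61%) of 15655 probes with a symbol. The sex-linked list had a median difference of 0.34 over 5 measured genes, and its summed intensity ran from 15.8 to 18.1 in heterozygous heat, 8.75 to 17.3 in heterozygous control, 11.6 to 16.2 in wildtype heat and 9.92 to 20.6 in wildtype control pools, over 4 genes with a value on all 16 arrays.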
